A study of Mus musculus with 10 samples.

Results

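Two-pore domain potassium channels carry the background potassium current of dorsal root ganglion (DRG) neurons, and 10 of their genes are described here: *Kcnk1*, *Kcnk2*, *Kcnk3*, *Kcnk4*, *Kcnk9*, *Kcnk10*, *Kcnk12*, *Kcnk13*, *Kcnk16* and *Kcnk18*. They were chosen by gene symbol, and the 10 were each found once among the 55414 genes counted in every library. Each subunit of this family has a pair of pore-forming loops, and a pair of subunits makes a channel that is open near the resting potential, so that it holds a neuron hyperpolarised and sets how much input is needed to fire it. In sensory neurons these channels are known as sensors as well as leaks: TREK and TRAAK channels open on membrane stretch and warming, TASK channels close in acid, and TRESK is switched on by calcium through calcineurin.

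DRG were collected at E18.5 from 5 control embryos and 5 *WD1* cKO embryos, and bulk RNA was sequenced from each. The *WD1* cKO embryos were Wnt1Cre/+ with Dach1 flox/flox, the controls were littermates that lacked Cre, and both groups carried the homozygous floxed *Dach1* allele on a mixed C57Bl/6J and CD1 background. The *Wnt1* driver acts in the neural crest, which gives rise to both the neurons and the glia of the DRG, but not to the vessels or macrophages within it. The comparison asks whether early loss of *Dach1*, a transcriptional regulator of somatosensory neurons, alters the RNA of this channel family. Titles and genotype entries of the samples contradict each other, each group bearing the other's genotype, and the titles were followed. *Dach1*, the targeted gene, lay between 35.02 and 41.6 CPM (counts relative to library size, scaled by edgeR's TMM method) in the libraries titled control and between 19.1 and 20.7 CPM in those titled *WD1* cKO (log2 fold change -0.92 ± 0.050 (SE), adjusted p = 5.48e-06 by edgeR's quasi-likelihood test). Its count takes in all exons, so an mRNA without the floxed exon still adds to it.

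Control libraries held 20465132 to 27528784 counts and *WD1* cKO libraries 19757596 to 34796562, and the 10 channel genes took between 0.0165% and 0.0194% of it. Pan-neuronal DRG markers summed to between 5269 and 5687 CPM, with no library apart from the rest. Some libraries did stand apart in markers of other tissue. Spinal cord markers summed to 11.9 CPM in control replicate 3 and to at most 1.06 CPM in the others, although the motor neuron marker *Mnx1* was at 0 there. Sympathetic and chromaffin markers summed to 64.2 CPM in control replicate 5, of which *Dbh* made 53.1 CPM, and to at most 9.72 CPM in the others. Red blood cell markers summed to between 148 and 221 CPM in replicates 4 and 5 of both groups and to between 461 and 2346 CPM in replicates 1 to 3, a split that the labels do not name as a batch.

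The double pore that names the family can be read directly in the coding sequences of the genes counted here. The longest annotated coding sequence of each gene (GENCODE M21, GRCm38) was searched in frame on the coding strand for the selectivity-filter motif, which is a threonine codon, any codon, a glycine codon, a tyrosine, phenylalanine or CT-starting leucine codon, and a glycine codon. Each of the 10 genes held exactly 2 matches, whereas 28 of 21813 protein-coding genes (0.128%) held 2 or more. Of those 28, 14 are mouse genes of this family, since *Kcnk5*, *Kcnk6*, *Kcnk7* and *Kcnk15* also held 2 matches each. The lines show both matches of *Kcnk18* and *Kcnk4*, the leading genes per length, and the second match of *Kcnk1* and *Kcnk12*, with 6 bases on each side of the motif. Capitals mark the last 3 codons of the motif, which are glycine, the variable codon and glycine.
Kcnk18, first filter: ttcagcacagtgGGTTATGGCcacatg
Kcnk18, second filter: ctgaccaccatcGGGTTTGGGgacatc
Kcnk4, first filter: atcactaccatcGGCTATGGCaatata
Kcnk4, second filter: ctcaccactgtaGGCTTTGGCgattat
Kcnk1, second filter: ctgagcaccatcGGCCTGGGGgactat
Kcnk12, second filter: ttcagcaccatcGGCTTCGGGgacctg

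In the first filter the variable codon was a tyrosine codon in 7 of the 10 genes and a phenylalanine codon in *Kcnk2*, *Kcnk12* and *Kcnk13*. In the second filter it was a phenylalanine codon in 9 of 10, and *Kcnk1* had the leucine codon CTG. Over all 14 family genes 3 had a leucine codon there, the others being *Kcnk6* and *Kcnk7*. An exon junction split the first filter after base 13 of the 27 bases shown, inside its first glycine codon, in all 10 genes, and no second filter was split. All of these stretches are exonic and coding. The second filters lie at chr19:59235421-59235447 (*Kcnk18*, plus strand), chr19:6927625-6927651 (*Kcnk4*, minus strand), chr8:126025323-126025349 (*Kcnk1*, plus strand) and chr17:87746447-87746473 (*Kcnk12*, minus strand) of GRCm38. The first filter of *Kcnk18* joins chr19:59225527-59225539 to chr19:59234810-59234823, and that of *Kcnk4* joins chr19:6928282-6928294 to chr19:6928141-6928154. Despite the shared motif, the longest identical run between transcripts of any of the 45 pairs of these genes was 26 bases, between *Kcnk12* and *Kcnk13*.

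Compared per length, the channels spanned a wide range of levels in control DRG, and TRESK and the stretch-sensitive channels TRAAK and TREK-2 led. CPM were divided by the merged exon length of each gene in kilobases, and the levels here are on that scale. *Kcnk18*, which encodes TRESK, a channel largely restricted to sensory ganglia, had 11.3 ± 1.34 CPM per kb (SD, n = 5) in control and 10.8 ± 0.870 CPM per kb (SD, n = 5) in *WD1* cKO DRG. It was first in each of the 10 libraries and made 30.7% of the summed level of the 10 genes in control and 29.8% in *WD1* cKO DRG. *Kcnk4* followed at 6.34 ± 0.278 CPM per kb in control, and *Kcnk10* at 5.89 ± 0.397 CPM per kb. The ranges of *Kcnk4* and *Kcnk10* overlapped in both groups, so their order was not beyond the spread of the libraries, while *Kcnk18* lay above both without overlap. These 3 genes together made 64.0% of the summed control level.

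*Kcnk3* and *Kcnk2* came next, at 3.43 ± 0.441 and 3.42 ± 0.567 CPM per kb in control DRG, followed by *Kcnk12* at 2.53 ± 0.461, *Kcnk1* at 1.89 ± 0.384 and *Kcnk9* at 1.46 ± 0.536 CPM per kb. Each of these 5 overlapped its neighbour in the order, and *Kcnk3* and *Kcnk2* changed places between the groups. *Kcnk13* at 0.361 ± 0.090 CPM per kb and *Kcnk16* at 0.138 ± 0.042 CPM per kb lay below all others in both groups without overlap. The place of *Kcnk9* depended on the length used. Its gene model has 12300 bases of merged exon but only 1206 coding bases, and per kilobase of coding sequence *Kcnk9* moved from the eighth to the fourth place, at 14.9 CPM per coding kb. By mean level *Kcnk18* kept the first place and *Kcnk16* the last under either length, but the lead of *Kcnk18* shrank with other lengths. By longest transcript *Kcnk18* had 11.3 and *Kcnk4* 11.2 CPM per kb in control, and by coding length *Kcnk18* had 33.1 and *Kcnk10* 30.1. The longest transcript of *Kcnk18* has the same 3470 bases as its merged exons. On that length its control libraries ran from 9.96 to 12.9 CPM per kb, so the *Kcnk4* mean by longest transcript lay inside their range. The lead of *Kcnk18* without overlap thus holds for merged exon length. Ranges by coding length were not compared.

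**Figure D1:**
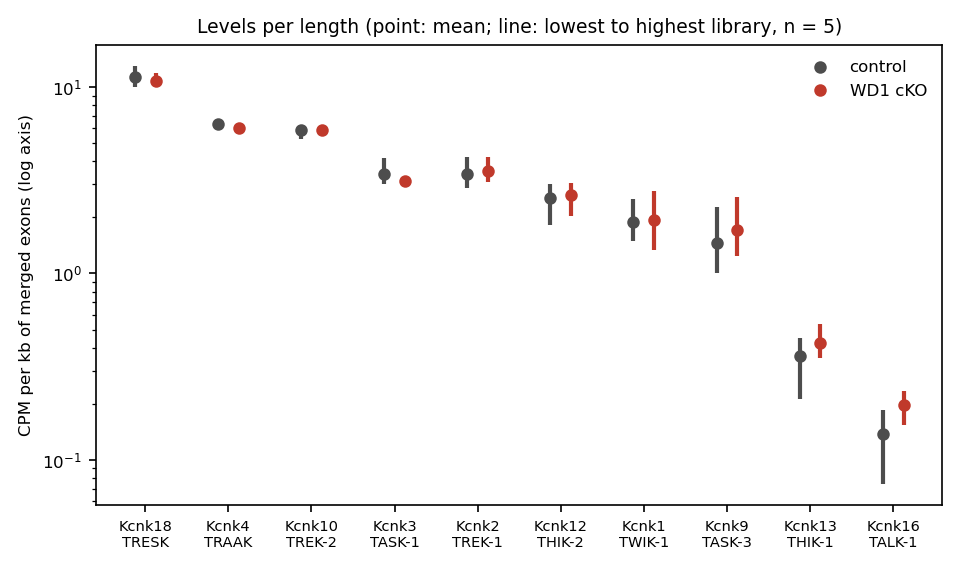
Levels of the 10 channel genes per length, in the order of the control means. The vertical log axis gives CPM per kb of merged exons, points are means of 5 libraries, and lines run from the lowest to the highest library of control (grey) and *WD1* cKO (red). *Kcnk18* leads at 11.3 CPM per kb in control, *Kcnk13* and *Kcnk16* lie apart at the bottom, and the control and *WD1* cKO ranges of each gene overlap.

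None of the 10 channel genes passed the test of *WD1* cKO against control DRG. All 10 passed the filter of at least 10 counts in at least 5 libraries, but *Kcnk16* passed through the *WD1* cKO libraries, with 5 of 5 reaching 10 counts against 1 of 5 control libraries. The number with an adjusted p under 0.05 was 0, where 0.04% of the 17490 genes tested had one (0.0343% lower and 0.00572% higher in *WD1* cKO), and the number with an unadjusted p under 0.05 was 0, where 4.5% did (2.38% lower and 2.12% higher, edgeR's quasi-likelihood test). DESeq2's Wald test likewise gave 0 of 10 at either threshold. The control and *WD1* cKO libraries overlapped in CPM for each of the 10 genes, and were apart for 1.06% of all genes tested. The fold change was above 0 for 7 of the 10, compared with 50.1% of all genes tested. The median log2 fold change of the 10 was 0.04 (0.04 without *Kcnk16*), against 0.00022 over all genes tested, and their median absolute log2 fold change was 0.065, against 0.053. In bulk tissue, fewer cells of a type and less RNA per cell cannot be told apart, in a difference as in its absence. A p-value above the threshold does not show that the levels were equal, and the interval of each difference is therefore given with it. The p-values measure the spread between the embryos' libraries.

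**Figure D2:**
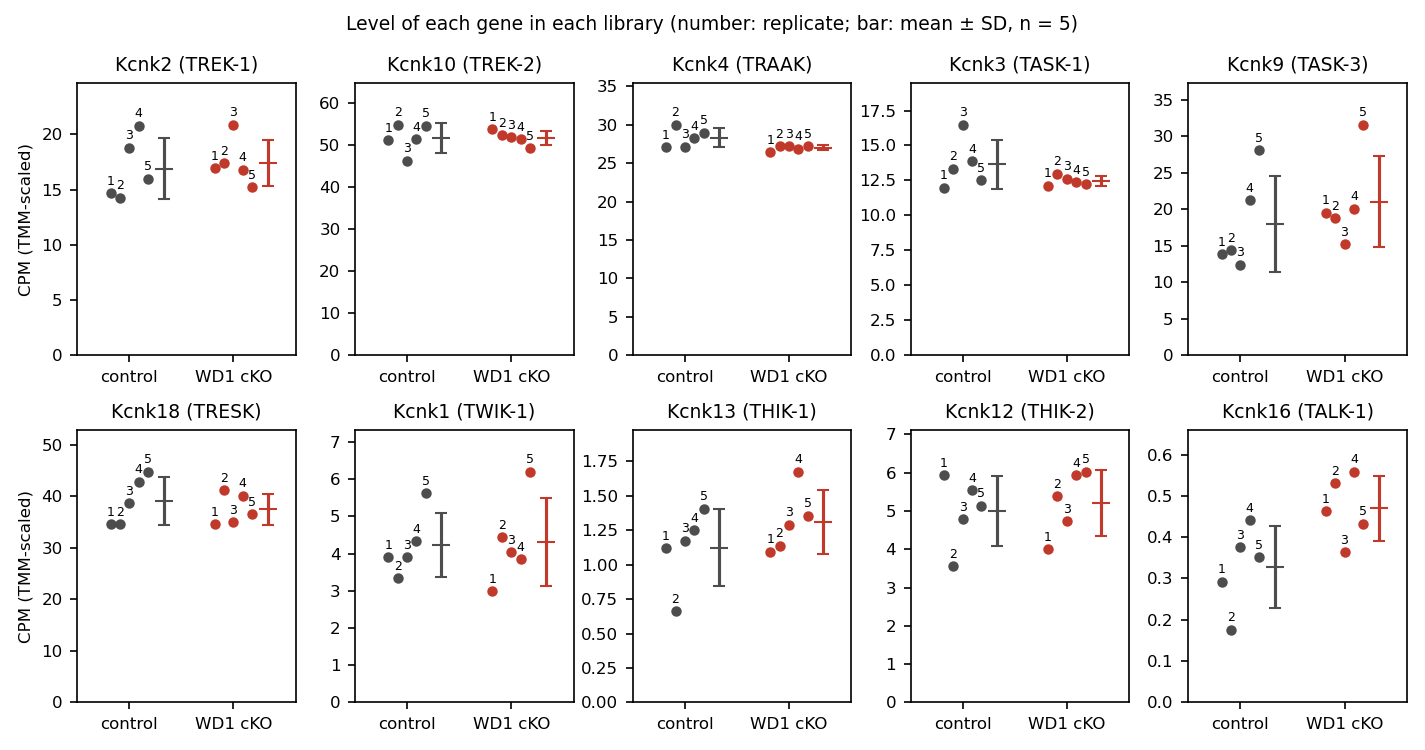
Level of each channel gene in each library. The vertical axes give TMM-scaled CPM from 0, points are libraries with their replicate number, and bars are the mean ± SD of 5 libraries in control (grey) and *WD1* cKO (red). The groups overlap in every panel, and the widest spread within a group relative to its mean is that of *Kcnk9*.

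The TREK and TRAAK channels, which respond to stretch, warmth and lipids, include the genes with the narrowest intervals, *Kcnk4* and *Kcnk10*. *Kcnk10* (TREK-2; ENSMUSG00000033854, chr12:98429437-98578310 of GRCm38, minus strand), which is known from nociceptors, had the highest CPM of the 10. It was at 51.2, 54.8, 46.2, 51.4 and 54.6 CPM in control replicates 1 to 5 and at 53.7, 52.3, 51.9, 51.3 and 49.2 CPM in *WD1* cKO replicates 1 to 5. The *WD1* cKO libraries all lay within the control range, whose lowest value came from control replicate 3. The log2 fold change of 0.00075 had a 95% interval from -0.10 to 0.11 (edgeR, adjusted p = 1.00; exact permutation p = 0.929), so changes beyond 7.57% upwards or 6.94% downwards lay outside it. The sign of so small a difference turned with the choice of scaling. The gene model of *Kcnk10* overlaps that of *5330409N07Rik* on the same strand and that of *Gm40893* on the opposite strand. Reads in the shared parts cannot be assigned with certainty.

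*Kcnk4* (TRAAK; ENSMUSG00000024957, chr19:6923966-6934515, minus strand) is the channel that repolarises the nodes of Ranvier of myelinated afferents. Its levels were 27.1, 30.0, 27.2, 28.3 and 29.0 CPM in control and 26.5, 27.2, 27.2, 26.9 and 27.2 CPM in *WD1* cKO replicates 1 to 5. The *WD1* cKO libraries lay close together at the lower edge of the control range, overlapping control replicates 1 and 3. Their spread (coefficient of variation) of 1.25% was below the 3.70% that counting error alone gives at a mean of 729 counts, so no meaning is drawn from their closeness. Means were 28.3 ± 1.24 CPM (SD, n = 5) in control and 27.0 ± 0.337 CPM (SD, n = 5) in *WD1* cKO DRG, and the log2 fold change was -0.07 with an interval from -0.16 to 0.02 (edgeR, adjusted p = 1.00). The exact two-sided permutation test gave p = 0.0794. Its gene model overlaps that of *Catsperz* on the same strand, so reads in the shared part cannot be assigned with certainty.

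*Kcnk2* (TREK-1; ENSMUSG00000037624, chr1:189207930-189402273, minus strand) works beside TRAAK in afferent axons. It ranged from 14.3 to 20.8 CPM with a mean of 16.9 ± 2.80 (SD, n = 5) in control and from 15.2 to 20.9 CPM with a mean of 17.5 ± 2.09 (SD, n = 5) in *WD1* cKO DRG. The log2 fold change was 0.04, with an interval from -0.20 to 0.29 (edgeR, adjusted p = 1.00; exact permutation p = 0.690). The *WD1* cKO values lay almost entirely inside the control range, and the spread of 16.6% in control was above the 5.06% that counting error gives at a mean of 391 counts. Its gene model overlaps genes on both strands, among them *A430027H14Rik* on the opposite strand.

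Among the acid-sensitive TASK channels, the values of *Kcnk9* varied more between libraries than between groups. *Kcnk9* (TASK-3; ENSMUSG00000036760, chr15:72501089-72546340, minus strand) is an imprinted gene that is expressed from the maternal allele and is known from cold-sensing neurons. It was at 13.8, 14.4, 12.4, 21.2 and 28.1 CPM in control replicates 1 to 5 and at 19.5, 18.8, 15.2, 20.05 and 31.6 CPM in *WD1* cKO replicates 1 to 5. Replicate 5 was highest and replicate 3 lowest in both groups, and the ratio of the highest to the lowest of the 10 libraries was 2.55. Means were 18.0 ± 6.59 CPM (SD, n = 5) in control and 21.03 ± 6.20 CPM (SD, n = 5) in *WD1* cKO DRG. The log2 fold change of 0.23 had an interval from -0.29 to 0.74 (edgeR, adjusted p = 1.00; exact permutation p = 0.389). The coefficient of variation was 36.6% in control and 29.5% in *WD1* cKO DRG, against 4.89% and 4.15% from counting error, so counting error was a small part of the spread.

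The *Kcnk9* difference was not spread evenly over the replicate numbers. In replicates 1 to 3, which had more red blood cell marker RNA, control libraries were at 12.4 to 14.4 CPM and *WD1* cKO libraries at 15.2 to 19.5 CPM, a log2 difference of 0.39. *Kcnk9* was the only one of the 10 genes whose groups did not overlap there, where 11.5% of all genes tested did not. In replicates 4 and 5 the log2 difference was 0.04, and the libraries of both groups together spanned 20.05 to 31.6 CPM. With the replicate sets as a term of the model, the log2 fold change was 0.26 (edgeR, adjusted p = 0.694). Control replicate 5, one of the high libraries, is also the one with sympathetic markers, and it was the highest for skeletal muscle markers, at 107 CPM. *WD1* cKO replicate 5, higher still in *Kcnk9*, had 7.55 CPM of sympathetic markers and 31.8 CPM of skeletal muscle markers. Without control replicate 5 the log2 fold change was 0.44 and without *WD1* cKO replicate 5 it was 0.02, and neither passed the test. The part of the marker RNA in these values was not tested.

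*Kcnk3* (TASK-1; ENSMUSG00000049265, chr5:30588170-30625271, plus strand) was at 11.98, 13.3, 16.5, 13.9 and 12.5 CPM in control and at 12.1, 12.98, 12.6, 12.4 and 12.3 CPM in *WD1* cKO replicates 1 to 5. Control replicate 3 stood above the other 9 libraries, and it is the library with spinal cord markers. The part of spinal cord RNA in the *Kcnk3* values was not tested. The log2 fold change was -0.13, with an interval from -0.30 to 0.05 (edgeR, adjusted p = 1.00; exact permutation p = 0.159), the lowest of the 10 genes. Without control replicate 3 it was -0.05. *Kcnk3* and *Kcnk9* thus had fold changes of opposite sign, neither of which passed the test, and the difference between them was not tested.

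*Kcnk18* (TRESK; ENSMUSG00000040901, chr19:59219214-59237374, plus strand) limits the firing of nociceptors. It was at 34.6, 34.6, 38.7, 42.8 and 44.8 CPM in control and at 34.6, 41.2, 34.99, 40.1 and 36.6 CPM in *WD1* cKO replicates 1 to 5. The *WD1* cKO libraries fell inside the control range, and control replicates 4 and 5 were the highest of all. The log2 fold change was -0.06 with an interval from -0.24 to 0.11 (edgeR, adjusted p = 1.00; exact permutation p = 0.571). It ran from -0.10 without control replicate 2 to -0.0091 without control replicate 5. In replicates 4 and 5 alone, the log2 difference was -0.19 and the groups did not overlap, as for 5 of the 10 genes, where 36.8% of all genes tested did not overlap either. In replicates 1 to 3 it was 0.04. Nociceptor markers did not share one pattern over the control libraries: in control replicate 5, the highest for *Kcnk18*, *Scn10a* was at its control maximum (1666 CPM), *Prdm12* (158 CPM) and *Runx1* (96.4 CPM) were at their control minimum, and *Calca* (378 CPM) was below control replicate 4 (407 CPM). The part of these cells in the *Kcnk18* values was not tested.

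*Kcnk1* (TWIK-1; ENSMUSG00000033998, chr8:125995170-126030685, plus strand) encodes a weakly conducting leak channel. It was at 3.90, 3.35, 3.90, 4.34 and 5.62 CPM in control and at 2.99, 4.44, 4.04, 3.86 and 6.20 CPM in *WD1* cKO replicates 1 to 5. Replicate 5 was the highest in both groups, as for *Kcnk9*. The log2 fold change was 0.04, with an interval from -0.37 to 0.45 (edgeR, adjusted p = 1.00; exact permutation p = 0.944). It was -0.14 without *WD1* cKO replicate 5, -0.03 without control replicate 2 and 0.16 without control replicate 5, so its sign turned with the library left out.

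**Figure D3:**
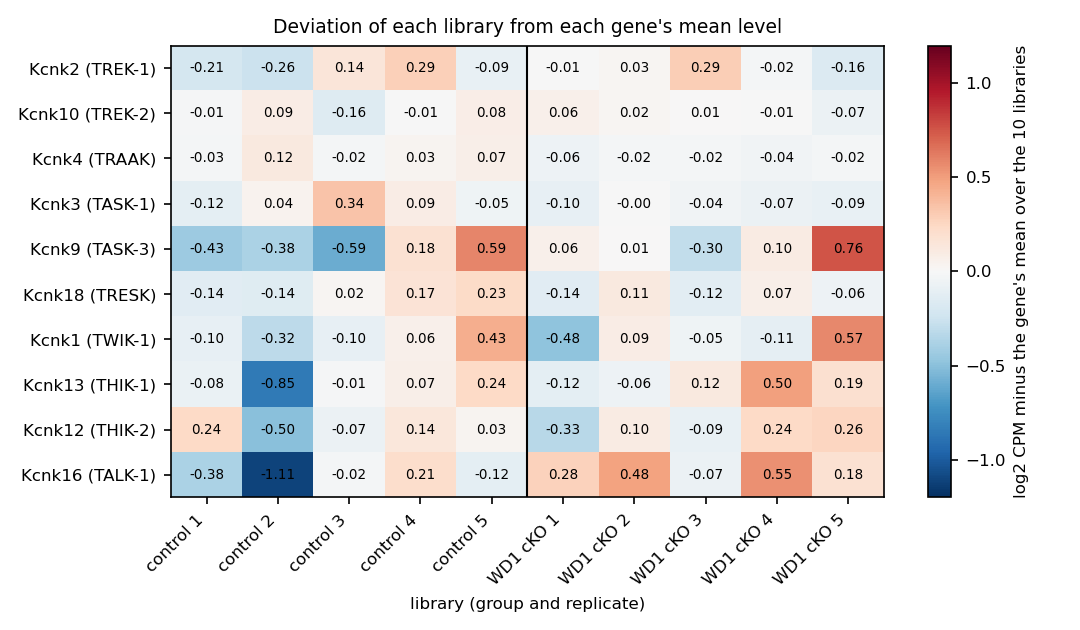
Deviation of each library from each gene's mean, as log2 CPM minus the mean over the 10 libraries. Rows are the 10 channel genes, from *Kcnk2* at the top to *Kcnk16* at the bottom, and columns the 5 control and 5 *WD1* cKO libraries. Replicate 5 is above the mean for *Kcnk9* (0.59 and 0.76) and *Kcnk1* (0.43 and 0.57) in both groups, while *Kcnk10* and *Kcnk4* stay within 0.16 of their means.

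Of the THIK channels, *Kcnk13* was low with a wide interval, and *Kcnk12* was higher. *Kcnk13* (THIK-1; ENSMUSG00000045404, chr12:99964499-100062682, plus strand), the leak channel of microglia and macrophages, ranged from 0.661 to 1.41 CPM in control and from 1.09 to 1.67 CPM in *WD1* cKO DRG, on 15 to 47 counts per library. Its log2 fold change was 0.21 with an interval from -0.22 to 0.65 (edgeR, adjusted p = 1.00; exact permutation p = 0.333). Control replicate 2 was the lowest library, and the log2 fold change was 0.07 without it. Macrophage markers summed to between 52.8 and 58.9 CPM in control and between 51.0 and 58.7 CPM in *WD1* cKO DRG. *Kcnk12* (THIK-2; ENSMUSG00000050138, chr17:87745801-87797994, minus strand) ranged from 3.57 to 5.94 CPM in control and from 4.00 to 6.02 CPM in *WD1* cKO DRG, with a log2 fold change of 0.06 and an interval from -0.26 to 0.38 (edgeR, adjusted p = 1.00; exact permutation p = 0.706). Control replicate 2 was also its lowest library, and without it the log2 fold change was -0.04.

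*Kcnk16* (TALK-1; ENSMUSG00000023387, chr14:20261376-20269199, minus strand), known chiefly from pancreatic beta cells, was barely detected and had the largest fold change of the 10. Control replicates 1 to 5 had 6, 4, 8, 12 and 8 counts, and *WD1* cKO replicates 1 to 5 had 11, 14, 11, 11 and 15. The groups overlapped: control replicate 4, at 0.441 CPM, lay above *WD1* cKO replicate 3 at 0.364 and replicate 5 at 0.432 CPM, and control replicate 3, at 0.376 CPM, lay above the former. Means were 0.327 ± 0.100 CPM (SD, n = 5) in control and 0.470 ± 0.078 CPM (SD, n = 5) in *WD1* cKO DRG, a log2 fold change of 0.48 with an interval from -0.07 to 1.03 (edgeR, adjusted p = 1.00). The exact two-sided permutation test of its log2 CPM gave an unadjusted p = 0.0397, as 1 of 10 such tests on these genes, with 0.00794 the smallest p that the design allows. *Kcnk16* passed the count filter through the *WD1* cKO libraries, where 5 of 5 reached 10 counts against 1 of 5 control libraries. Its place among the genes tested thus rests on the group where it is higher, and no support is drawn from its fold change or p-values. Counting error alone gives a coefficient of variation of 36.3% at the mean of 7.6 control counts, above the 30.5% observed, so at this depth counting error was as large as the spread between libraries.

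**Figure D4:**
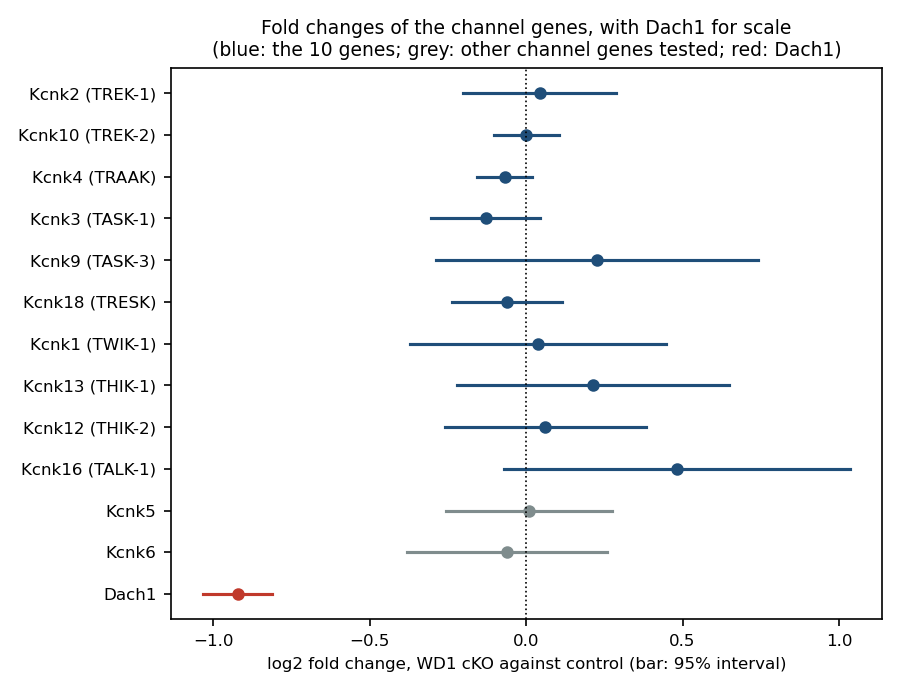
Log2 fold changes of *WD1* cKO against control DRG from edgeR, with 95% intervals as bars. The 10 channel genes are blue, *Kcnk5* and *Kcnk6* grey and *Dach1* red. Each interval of a channel gene includes 0, from the narrow one of *Kcnk4* (-0.16 to 0.02) to the wide one of *Kcnk16* (-0.07 to 1.03), whereas that of *Dach1* runs from -1.03 to -0.81.

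Of the remaining mouse genes of the family, *Kcnk5* and *Kcnk6* passed the filter and were fitted in the same model, and neither had an unadjusted p under 0.05. *Kcnk5* (TASK-2, an alkali-activated channel) was at 10.8 ± 1.61 CPM (SD, n = 5) in control and 10.9 ± 1.67 CPM (SD, n = 5) in *WD1* cKO DRG, and *Kcnk6* (TWIK-2) at 2.96 ± 0.490 and 2.83 ± 0.476 CPM. *Kcnk7* had 3 to 13 counts per library and *Kcnk15* at most 1, which leaves both below what this depth can compare.

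Genes whose proteins bind or regulate these channels were also measured. All 19 on the list passed the filter, 0 had an adjusted p under 0.05 and 1 had an unadjusted p under 0.05, with 11 fold changes above 0 and 8 below. These counts lie near the 4.5% with an unadjusted p under 0.05 and the 50.1% above 0 over all genes tested. The median log2 fold change was 0.0077. The 5 TRESK regulators included the calcineurin subunits *Ppp3ca*, *Ppp3cb* and *Ppp3r1*, which activate the channel, and *Mark2*, a kinase that acts on it. *Mark2* had the 1 unadjusted p under 0.05, at a log2 fold change of -0.08 with an interval from -0.16 to -0.0096 (edgeR, adjusted p = 1.00). None of the TASK partners, the TREK and TRAAK partners or the TWIK partners, at 5, 5 and 4 genes, did so.

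For the gene with the lowest p and the gene with the highest CPM, the genes most alike in pattern were sought among those with a mean of at least 10 CPM, by Pearson's r of log2 CPM over the 10 libraries. *Kcnk16* was most like *Flt1* (r = 0.899, Spearman's rho = 0.673), *Chmp2b* (r = 0.898, rho = 0.648) and *Med7* (r = 0.894, rho = 0.745). *Kcnk10* was most like *Tut7* (r = 0.936, rho = 0.770), *March6* (r = 0.916, rho = 0.915) and *Rnf149* (r = 0.910, rho = 0.952). These are the highest of 10771 and 10770 genes compared, over libraries that share depth and tissue makeup, and they describe these libraries only. For *Kcnk16*, with 4 to 15 counts per library, the pattern itself rests on few reads, and the gene passed the filter through the *WD1* cKO libraries.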

How the data were processed

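DRG RNA of 5 control and 5 *WD1* cKO embryos was sequenced from stranded mRNA libraries. The authors aligned reads with STAR 2.7.8a to GRCm39 and deposited featureCounts 2.0.1 counts per gene for each library, without normalization. How strand and multi-mapping reads were treated is not given in the sources used here, so overlapping genes are uncertain. Of 55414 gene identifiers, 52081 had a symbol. Lengths, positions and sequences came from GENCODE M21 on GRCm38, a different build from that of the counts, and were not converted. Within groups, every pair of libraries exceeded sampling noise (chi-square over its degrees of freedom, 4.35 to 15.02), so each was 1 replicate.

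edgeR 4.0.16 under R 4.3.3 was used (TMM, quasi-likelihood test, genotype alone, Benjamini-Hochberg over the 17490 genes that reached 10 counts in 5 or more libraries). Intervals are 95%. Exact permutation tests were two-sided, on group means of log2 CPM (prior count 1). The procedure was tested on simulated data. Alternatives were DESeq2 1.42.0, its size factors, other count filters, robust dispersions, replicate number or replicate set as terms, the *Xist* level as a covariate, other gene lengths and each library left out. The text names the 10 genes, the rest of the family, and of the regulators those with an unadjusted p under 0.05 or the largest change, apart from items that are not reported here. The genes, lists and markers were chosen with earlier results of these data known.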

Additional observations from a re-analysis of the deposited data

How the results depend on the processing

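DESeq2 aside, all values here are from edgeR. The number of the 10 channel genes called stayed at 0 under every alternative, and the number with an unadjusted p under 0.05 stayed at 0 except with the replicate block. The number of genes called over the whole table moved more, from 7 to 19 with DESeq2's Wald test, 11 with the replicate sets as a term, and 4 when genes averaged 100 counts or more, as also when the *Xist* level was a covariate. Leaving out each library in turn gave 3 to 6 genes called, and 6 without control replicate 3 or *WD1* cKO replicate 1. That count filter removed *Kcnk13* and *Kcnk16*. Leave-one-out values of the median log2 fold change ran from -0.02 (without control replicate 2) to 0.10 (without *WD1* cKO replicate 1). The direction was lost for *Kcnk10*, at -0.00074 with DESeq2's size factors, -0.0014 with DESeq2's Wald test and -0.026 with the *Xist* covariate. With a library left out, values ran from -0.036 to 0.023 for *Kcnk10*, -0.14 to 0.16 for *Kcnk1*, -0.033 to 0.13 for *Kcnk2* and -0.038 to 0.14 for *Kcnk12*. The other 6 genes kept their direction in each alternative. By coding length, 5 of the 10 genes kept their place in the order of levels. Same-numbered libraries of the groups correlated at 0.329, 0.040, 0.320, 0.354 and 0.390, and 3 of 5 correlated best with their own number, so the numbers were not taken as pairs. With the replicate block, 8 genes were called and 1 channel gene, *Kcnk9*, had an unadjusted p under 0.05 (log2 fold change 0.24, edgeR, adjusted p = 0.605). The cause of these shifts was not tested. Depth limits *Kcnk16*, *Kcnk13* and *Kcnk7*.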
